A study of Mus musculus with 36 samples.

Results

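RNA from the extensor digitorum longus (EDL), a fast-twitch muscle of the lower hind limb, was compared between mice labelled as lacking both ERRalpha and ERRgamma in muscle and wild-type (WT) mice. The 6 libraries were those titled for the EDL and the ERRalpha/ERRgamma class, 3 labelled dmKO and 3 labelled WT, out of 36 libraries in the series. Per the labels, floxed mice backcrossed to C57BL/6JBom for at least 10 generations were crossed to mice carrying Cre recombinase under the human alpha-skeletal actin promoter. That promoter is active in muscle fibres, so endothelium, fibroblasts, leukocytes and other cells of the whole muscle would keep their receptors. The WT animals were littermates per the series design. The table marks its columns FXp and FX-, which were read as floxed with Cre and floxed without Cre, so the WT animals would carry the same floxed alleles, and every direction given here rests on that reading. All animals were 1-year-old males on chow at about 22 °C with 12 h of light. The libraries are called dmKO-labelled and WT, and their numbers follow the order of the table's columns and carry no meaning.

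The estrogen-related receptors ERRalpha, ERRbeta and ERRgamma, encoded by Esrra, Esrrb and Esrrg, are orphan nuclear receptors that bind DNA without a known natural hormone. With coactivators such as PGC-1alpha (Ppargc1a) and PGC-1beta they switch on nuclear genes of the respiratory chain, the tricarboxylic acid (TCA) cycle and fatty acid oxidation. In skeletal muscle they are known for setting oxidative capacity, and ERRgamma is known for its abundance in slow, oxidative fibres.

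Values are log2 signals that the authors quantile normalized, as the deposited table's name and values show, a step that gives every library the same distribution of values and removes its read total, so depth is unknown. Genes detected numbered 14379 to 14835 in the dmKO-labelled libraries and 14033 to 14376 in the WT libraries, without overlap. Across genes, libraries of the same label correlated at 0.981 to 0.986 and libraries of different labels at 0.968 to 0.973. Differences are dmKO-labelled minus WT on the log2 scale, ± SE (n = 3 libraries per label), so that -1 is 50% of the WT signal. The test was limma over all 36 libraries, and genes with an adjusted p under 0.05 (Benjamini-Hochberg, over all 13358 genes tested) are referred to as called.

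The libraries had the expression of a fast muscle. The fast myosin heavy chain Myh4 lay between 11.39 and 11.76 in dmKO-labelled libraries and between 11.72 and 11.75 in WT libraries, against 2.90 to 8.63 in the series' 18 soleus libraries. The slow myosin heavy chain Myh7 was between -1.03 and 3.71 in dmKO-labelled libraries and between -1.96 and -1.42 in WT libraries, against 8.95 to 10.5 in soleus. All 10 markers of muscle fibres were detected in every library. In a whole muscle, fewer cells of a type and less RNA per cell cannot be told apart.

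The receptor genes themselves came first. Esrra (GRCm38, chromosome 19, 6910977 to 6921813, minus strand) read 3.19, 2.90 and 3.20 in the dmKO-labelled libraries, against 5.38, 5.33 and 5.26 in the WT libraries. No dmKO-labelled value came near a WT value, and the change was -2.23 ± 0.12, or 21.3% of the WT signal (limma, adjusted p = 3.54e-15). A protein-coding gene on the opposite strand, Trmt112, overlaps the annotated span, and whether reads were counted by strand is not stated. Esrrb, which the labels of these mice do not name, read -0.95, -1.35 and -1.41 in the dmKO-labelled libraries, against 0.05, 0.30 and 0.73 in WT. Its groups did not overlap either, with a change of -1.60 ± 0.21 (limma, adjusted p = 9.63e-07).

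Esrrg, the second gene the labels name as deleted, was not lower. It read 1.55, 2.08 and 1.45 in the dmKO-labelled libraries, against 0.96, 1.41 and 1.18 in the WT libraries, a change of 0.51 ± 0.15 (limma, adjusted p = 0.0154). This call was lost in a fit of the 6 libraries alone (0.51 ± 0.20, adjusted p = 0.129), after centring each library on its median deviation (0.41 ± 0.15, adjusted p = 0.0714), without dmKO-labelled library 2 (0.31 ± 0.15, adjusted p = 0.173) and without WT library 1 (0.40 ± 0.16, adjusted p = 0.106). The labels do not say which stretch of the gene was removed, and reads from its other exons may remain, so this value does not check the ERRgamma label. Esrrg was also higher in EDL placed in the ERRalpha class, by 0.61 ± 0.15, and by 0.48 ± 0.15, not called, in EDL labelled for ERRbeta and ERRgamma.

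**Figure D1:**
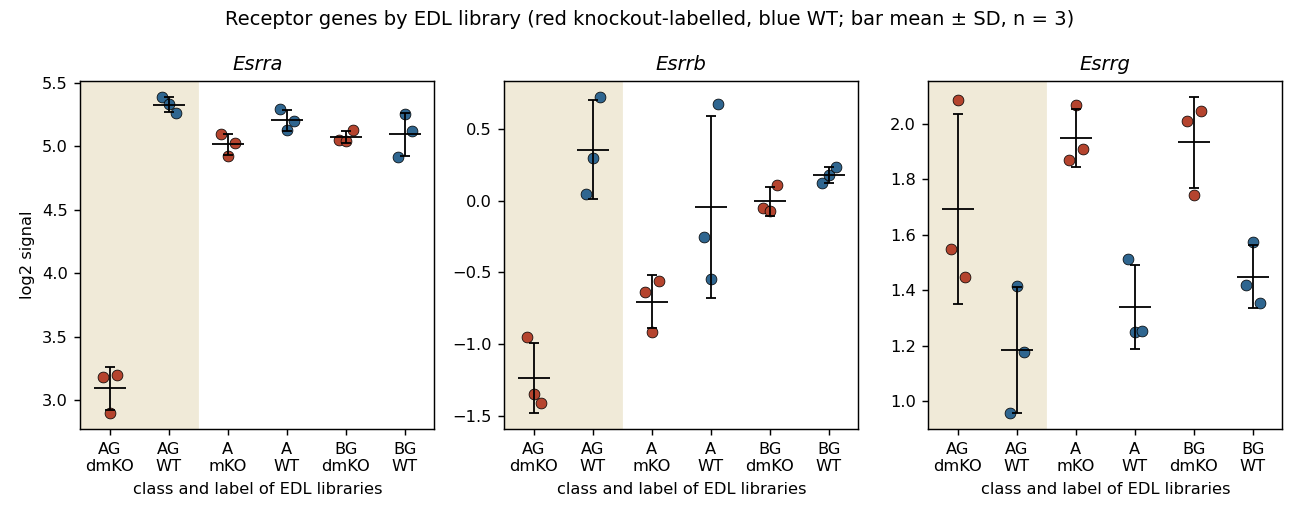
Log2 signal of the receptor genes (y axis) in each of 18 EDL libraries grouped by deletion class and label (x axis; AG is ERRalpha/ERRgamma, A is ERRalpha, BG is ERRbeta/ERRgamma), with bars at the mean ± SD (n = 3). In the shaded AG class Esrra sits between 2.90 and 3.20 in dmKO-labelled libraries and between 5.26 and 5.38 in WT libraries, while Esrra in the other classes lies near that WT level.

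Of 13358 genes, 2418 were called (18.1%), with 1489 higher (11.1%) and 929 lower (6.95%). The median of all tested genes was 0.13 and not 0. After each library was centred on its median deviation from the gene means, a correction chosen after the data were seen, that median was 0.03, 822 genes were called higher (6.15%) and 1166 lower (8.73%). All 929 genes called lower were again called lower after this centring, and 822 of the 1489 called higher were again called higher. Falls were larger than rises, with a median of -0.73 among genes called lower and 0.49 among genes called higher. Called genes at -1 or below numbered 296 (2.22%) and called genes at 1 or above numbered 230 (1.72%). In 4849 of 12781 genes with a value in all 6 libraries (37.9%) the dmKO-labelled and WT libraries did not overlap.

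Chchd10 led the falls; it encodes a protein of the mitochondrial intermembrane space tied to the inner membrane's folds. It read 4.97, 4.72 and 5.10 in the dmKO-labelled libraries, against 7.82, 7.77 and 7.64 in WT, a change of -2.82 ± 0.09 to 14.2% of the WT signal. The annotated span of Chchd10 (chromosome 10, 75933130 to 75937747, plus strand) overlaps Mmp11 and Gm867 on the opposite strand. Gnb5, a G protein beta subunit, read -0.47, 0.32 and 0.21 in the dmKO-labelled libraries, against 2.88, 3.01 and 2.58 in WT (-2.80 ± 0.22). Both genes were thus at least 2 log2 units lower in every dmKO-labelled library than in any WT library.

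Other genes among the 15 largest falls had varied roles. Ephx2, the soluble epoxide hydrolase that inactivates fatty acid epoxides, changed by -2.56 ± 0.19, Phyh, the peroxisomal enzyme that starts the breakdown of phytanic acid, by -2.31 ± 0.11, and Nceh1, a cholesterol ester hydrolase, by -2.36 ± 0.18. Pank1, a pantothenate kinase that starts coenzyme A synthesis, changed by -2.45 ± 0.20, and Clybl, a mitochondrial lyase, by -2.54 ± 0.21. Ostn, which encodes the secreted muscle peptide osteocrin (musclin), read 3.47, 3.17 and 3.74 in the dmKO-labelled libraries, against 5.81, 6.39 and 5.37 in WT (-2.40 ± 0.29). The potassium channel subunit Kcng4 (-2.51 ± 0.46), the mitochondrial carrier Slc25a34 (-2.16 ± 0.36) and the homeobox gene Barx2 (-2.06 ± 0.17) were also among the 15 largest.

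Among the largest rises were genes of energy buffering and of the slow-fibre programme. Gamt, the methyltransferase that completes creatine synthesis, read 5.33, 5.47 and 5.42 in the dmKO-labelled libraries, against 2.12, 2.54 and 2.45 in WT, a rise of 3.03 ± 0.43 or 8.19-fold. Car3, the carbonic anhydrase abundant in slow muscle, read 11.32, 11.33 and 11.60 in the dmKO-labelled libraries, against 8.85, 9.20 and 8.71 in WT (2.49 ± 0.28). Phkb, the beta subunit of phosphorylase kinase, which activates glycogen breakdown, read 8.05, 8.24 and 8.11 in the dmKO-labelled libraries, against 5.69, 5.68 and 5.6 in WT (2.47 ± 0.15). These groups stood far apart with little spread inside them. The rest included the muscle methyltransferase gene Mettl21c (2.17 ± 0.47), the tendon transcription factor gene Scx (2.07 ± 0.25), the G protein regulator Rgs2 (1.65 ± 0.25), Phyhd1 (1.68 ± 0.18), Plekho1 (1.67 ± 0.30), Ttc9 (1.60 ± 0.22) and F830016B08Rik (1.94 ± 0.32). Slc25a25, a calcium-regulated ATP carrier, was uneven, at 1.53, 4.26 and 3.58 in the dmKO-labelled libraries, against 0.88, 1.47 and 1.40 in WT. Its change of 1.88 ± 0.61 was not called without dmKO-labelled library 2 (1.31 ± 0.65) or library 3 (1.65 ± 0.69), nor without any 1 of the 3 WT libraries (1.69 to 1.98).

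**Figure D2:**
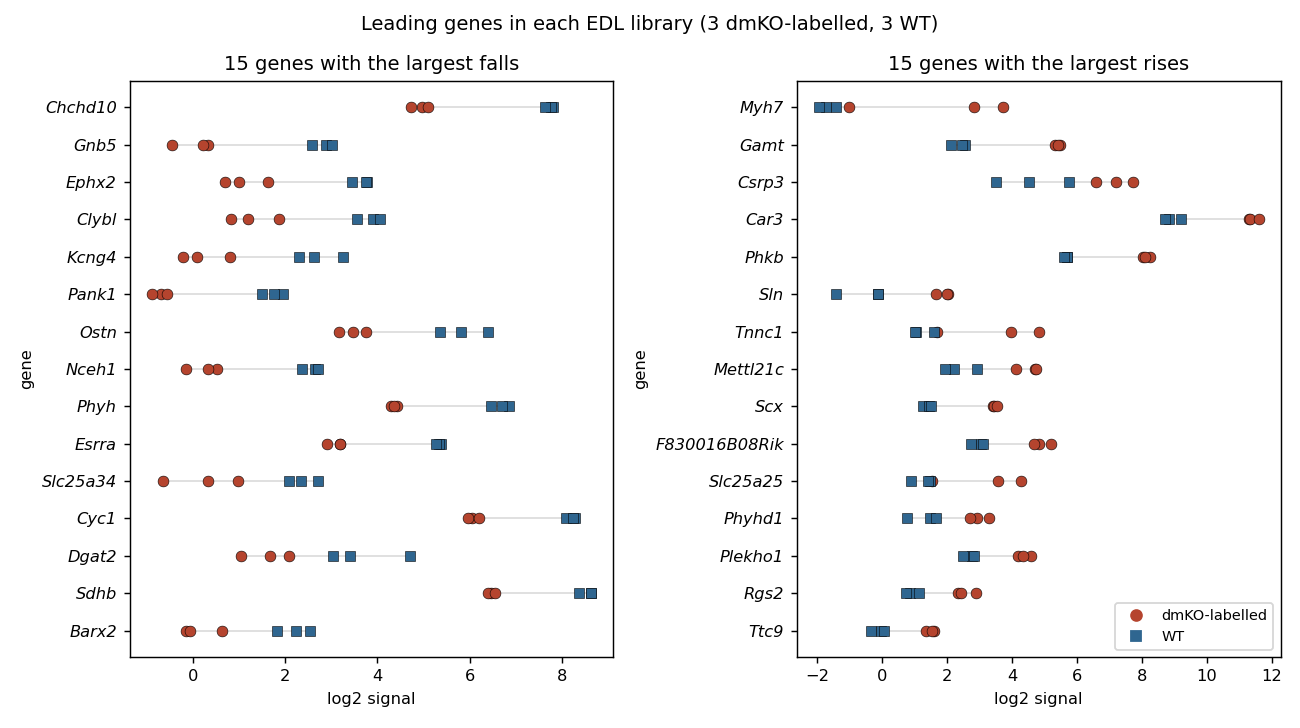
Log2 signal (x axis) in each dmKO-labelled library (red circles) and each WT library (blue squares) of the 15 genes with the largest falls and the 15 with the largest rises (y axis), taken from called genes with at least the median level and no overlap between groups. Chchd10 lies at 4.72 to 5.10 in dmKO-labelled libraries and at 7.64 to 7.82 in WT, while Myh7, Tnnc1 and Slc25a25 each have 1 dmKO-labelled library close to the WT values.

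ERRs are known to bind the half-site AAGGTCA, best when it is preceded by T and any base (N), a longer motif that contains the half-site. Promoters of RefSeq on GRCm38.p6, from 250 bases before to 50 bases after each annotated start, were searched for both on either strand, with 10219 tested genes matched by symbol. The longer motif was in 6 of 727 genes called lower (0.825%), 10 of 1179 called higher (0.848%) and 96 of all 10219 tested (0.939%), and in 421 of all 32851 promoters (1.28%). The half-site was in 53 of 727 genes called lower (7.29%), 47 of 1179 called higher (3.99%), 404 of all tested (3.95%) and 1550 of all promoters (4.72%). A match is a stretch of letters and not a known binding site. The stretches below are shown because they belong to genes called lower. Atp5g3, of ATP synthase, holds the longer motif. The other genes, Gnb5, the carrier Slc25a34, the aspartate transaminase Got1, the mitochondrial elongation factor Gfm1 and the deacylase Sirt5, hold the half-site only and were picked after their values were seen, because the search for the longer motif among named genes left Atp5g3 alone. Each stretch is written 5′ to 3′ along the gene's strand, and capitals mark the match, which reads as its reverse complement in Atp5g3, Slc25a34 and Gfm1.
Atp5g3 (chr2:73911340-73911408, minus strand): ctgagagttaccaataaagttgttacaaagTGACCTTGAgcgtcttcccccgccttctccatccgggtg
Gnb5 (chr9:75306047-75306113, plus strand): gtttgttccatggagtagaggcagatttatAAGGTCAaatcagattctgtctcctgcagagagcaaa
Slc25a34 (chr4:141623917-141623983, minus strand): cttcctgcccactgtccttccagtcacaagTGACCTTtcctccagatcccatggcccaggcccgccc
Got1 (chr19:43524814-43524855, minus strand): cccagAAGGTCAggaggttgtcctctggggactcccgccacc
Gfm1 (chr3:67430073-67430114, plus strand): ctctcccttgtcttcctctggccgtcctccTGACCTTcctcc
Sirt5 (chr13:43365340-43365406, plus strand): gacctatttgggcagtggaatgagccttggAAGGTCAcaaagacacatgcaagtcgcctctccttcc
The match ends 44 bases before the annotated start in Atp5g3, 205 in Gnb5, 113 in Slc25a34, 239 in Got1, 6 in Gfm1 and 159 in Sirt5. In the same order these genes changed by -1.82 ± 0.09, -2.80 ± 0.22, -2.16 ± 0.36, -1.64 ± 0.11, -1.28 ± 0.10 and -0.97 ± 0.16.

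The respiratory chain, which passes electrons from nutrients to oxygen and drives ATP synthase, fell almost throughout. Over 6 lists (complex I, complexes II and III with cytochrome c, complex IV, complex V, the TCA cycle with pyruvate dehydrogenase, and fatty acid oxidation), 118 of 130 genes were called lower and 0 higher, with a median of -1.18 beside 0.13 over all genes. When 1 library was left out, 114 to 119 were called lower. In 120 of the 130 genes the dmKO-labelled and WT libraries did not overlap, beside 37.9% over all genes.

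In complex I, 35 of 36 subunits fell (median -1.03), and the sizes were uneven. The catalytic flavoprotein subunit Ndufv1 read 5.69, 5.58 and 5.85 in the dmKO-labelled libraries, against 7.45, 7.61 and 7.69 in WT (-1.88 ± 0.09). Ndufs1, another electron-carrying core subunit, changed by -1.87 ± 0.11 and the membrane-arm subunit Ndufb5 by -2.02 ± 0.08. At the other end were Ndufa7 (-0.15 ± 0.06, not called) and Ndufs5, which changed by -0.20 ± 0.06 and was not called without dmKO-labelled library 1 (-0.18 ± 0.07), WT library 1 (-0.17 ± 0.07) or WT library 3 (-0.20 ± 0.07).

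Complexes II and III with cytochrome c had the lowest median of the chain, -1.60, with 14 of 14 genes called lower. Cyc1, cytochrome c1 of complex III, read 6.06, 5.96 and 6.20 in the dmKO-labelled libraries, against 8.09, 8.30 and 8.25 in WT (-2.14 ± 0.09, 22.7% of WT). Sdhb, the iron-sulfur subunit of succinate dehydrogenase, read 6.47, 6.41 and 6.55 in the dmKO-labelled libraries, against 8.37, 8.64 and 8.65 in WT (-2.07 ± 0.08). Cytochrome c itself, Cycs, changed by -2.0 ± 0.09. Each of these genes was lower in every dmKO-labelled library than in any WT library.

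In complex IV, cytochrome c oxidase, 13 of 16 subunits fell (median -1.33). Of the Cox6a pair, the muscle form Cox6a2 read 8.46, 8.46 and 8.36 in the dmKO-labelled libraries, against 9.08, 9.16 and 9.24 in WT (-0.73 ± 0.06), while the widely expressed Cox6a1 was not called (-0.18 ± 0.19). Of the Cox8 pair, the muscle form Cox8b was not called (-0.05 ± 0.11) and Cox8a changed by -0.87 ± 0.16. Cox7a1, the muscle form, and Cox7a2, the widely expressed one, changed by -1.53 ± 0.08 and -1.64 ± 0.08. The muscle and the widely expressed partners thus did not order the same way in the 3 pairs; the differences within a pair were not tested.

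ATP synthase and its assembly genes fell in 17 of 19 (median -1.24). The catalytic subunit Atp5b read 8.24, 8.14 and 8.41 in the dmKO-labelled libraries, against 10.15, 10.35 and 10.34 in WT (-2.02 ± 0.09). The membrane ring subunit is encoded by 3 genes, of which Atp5g3 changed by -1.82 ± 0.09, Atp5g1 by -1.59 and Atp5g2 by -0.26. Atpif1, the inhibitor of the enzyme, was not called (-0.04 ± 0.18).

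Genes that build and equip the chain fell less uniformly. Of 13 complex I assembly genes 9 fell (median -0.64), of 10 for complexes II and III 5 fell and 1 rose (median -0.32), and of 20 for complex IV 11 fell and 1 rose (median -0.32). Cox10, which makes the haem of cytochrome oxidase, read 1.71, 1.96 and 1.97 in the dmKO-labelled libraries, against 3.36, 3.68 and 3.61 in WT (-1.67 ± 0.11). Uqcc1, a complex III assembly factor, changed by -1.31 ± 0.09. Coenzyme Q synthesis fell in 10 of 13 genes (median -0.87), though in 6 in the fit of the 6 libraries alone and with a median of -0.55 without dmKO-labelled library 1, including Coq9 (-1.64 ± 0.10) and the kinase-like Adck3 (-1.50 ± 0.14). Of 24 genes of haem and iron-sulfur cluster synthesis 9 fell and 1 rose (median -0.30), led by Alas1, the first enzyme of haem synthesis (-1.27 ± 0.15), and the electron carrier Fdx1 (-1.06 ± 0.11).

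The TCA cycle and pyruvate dehydrogenase fell in 19 of 21 genes (median -1.32). Idh3b, a subunit of the NAD-linked isocitrate dehydrogenase, read 6.16, 6.02 and 6.16 in the dmKO-labelled libraries, against 8.0, 8.18 and 8.19 in WT (-2.01 ± 0.07), whereas the catalytic subunit Idh3a changed by -1.06 ± 0.10. Dlat, the transacetylase of pyruvate dehydrogenase, changed by -1.99 ± 0.08 and Cs, citrate synthase, by -0.91 ± 0.09. The 2 members not called were pyruvate carboxylase, Pcx (-0.19), and Ogdhl (0.04).

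Delivery of fuel to the cycle split by route. Of the 8 genes that carry cytosolic NADH equivalents into mitochondria, 5 fell, all of the malate-aspartate shuttle: Got2 (-1.94 ± 0.10), Mdh1 (-1.89 ± 0.10), Got1 (-1.64 ± 0.11), Slc25a11 (-1.36 ± 0.10) and Slc25a12 (-1.28 ± 0.10). The shuttle's second aspartate carrier Slc25a13 (-0.19) and both genes of the glycerol-phosphate shuttle, Gpd1 (0.46 ± 0.30) and Gpd2 (-0.11 ± 0.22), were not called. Of 12 genes of pyruvate entry 5 fell, among them the pyruvate carrier subunit Mpc2 (-1.19 ± 0.07) and the heart-type lactate dehydrogenase Ldhb, which read 5.45, 5.23 and 5.59 in the dmKO-labelled libraries, against 6.66, 7.10 and 6.97 in WT. The pyruvate dehydrogenase kinase gene Pdk4 varied within both groups, at 3.74, 7.55 and 6.53 in the dmKO-labelled libraries, against 7.77, 7.26 and 6.13 in WT, and was not called.

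Fatty acid oxidation fell in 20 of 24 genes (median -0.98). Cpt1b, the muscle enzyme that admits long-chain fatty acids to mitochondria, read 5.34, 5.32 and 5.55 in the dmKO-labelled libraries, against 6.36, 6.64 and 6.51 in WT (-1.10 ± 0.14). The acyl-CoA dehydrogenases, which take the first step of each round of oxidation, changed by -1.37 ± 0.12 (very-long-chain, Acadvl), -1.47 ± 0.17 (long-chain, Acadl), -0.71 ± 0.13 (medium-chain, Acadm) and -1.26 ± 0.12 (short-chain, Acads). Branched-chain amino acid and ketone use fell in 22 of 23 genes (median -0.75), and the ketone body enzymes Bdh1 (-1.73 ± 0.31), Acat1 (-1.36 ± 0.09) and Oxct1 (-1.08 ± 0.13) fell most.

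Lipid uptake and storage fell in 10 of 24 genes, with 1 higher (median -0.39). Dgat2, which makes triglyceride, read 1.67, 1.05 and 2.08 in the dmKO-labelled libraries, against 3.04, 3.41 and 4.71 in WT (-2.12 ± 0.30). The droplet protein Plin5 changed by -1.71 ± 0.24, the fatty acid binding protein Fabp3 by -1.55 ± 0.27, lipoprotein lipase Lpl by -1.47 ± 0.19 and the transporter Cd36 by -1.07 ± 0.20, while the droplet protein Plin3 was higher (1.01 ± 0.20). Fat cells also express several of these genes. The 6 adipocyte markers were all below 0 with a median of -1.48, none called. The log2 of their summed linear signal, which the most abundant markers weigh on most, was 3.26 to 4.84 in dmKO-labelled libraries and 3.47 to 6.46 in WT. Adipoq, which defines fat cells, read 1.40, 0.82 and 3.31 in the dmKO-labelled libraries, against 2.14, 3.61 and 5.02 in WT. The part of fat cells in the lipid genes' falls was not tested.

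**Figure D3:**
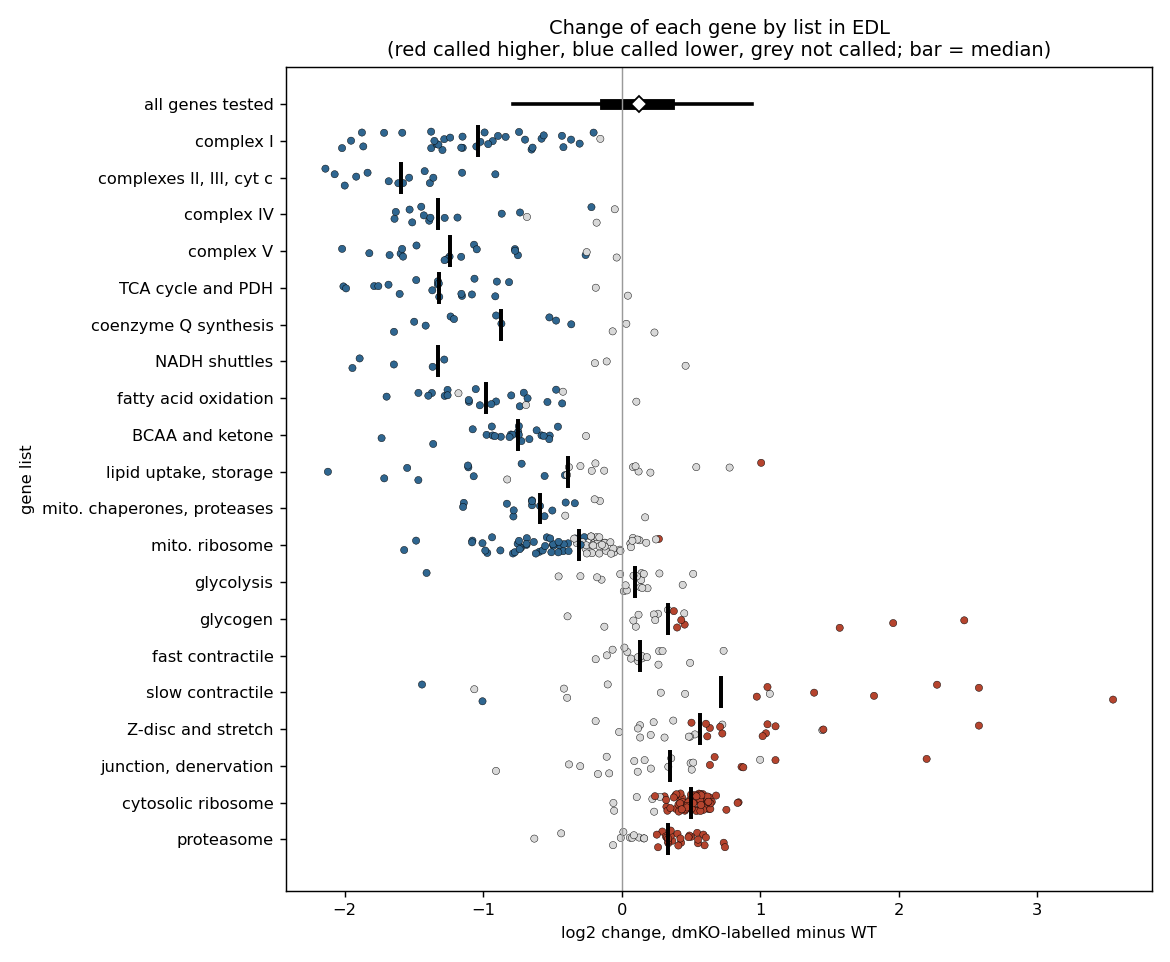
Log2 change, dmKO-labelled minus WT (x axis), of each tested gene of 20 lists (y axis), red where called higher, blue where called lower, grey where not called, with a bar at the list median. The top line gives all genes tested, with a diamond at the median, a thick line from the 25th to the 75th percentile and a thin line from the 5th to the 95th. Oxidative lists sit almost wholly below 0, glycolysis and fast contractile genes lie around the all-gene median of 0.13, and cytosolic ribosome genes form a narrow band near 0.50.

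The machinery that makes and maintains mitochondria fell in part. Of 78 mitochondrial ribosome genes 39 fell and 1 rose (median -0.31), with Mrpl12 at 4.81, 4.98 and 4.97 in the dmKO-labelled libraries, against 6.44, 6.56 and 6.47 in WT (-1.57 ± 0.10). Of 28 genes of mitochondrial translation 17 fell (median -0.49), of 17 chaperones and proteases 13 fell (median -0.59), and of 32 import genes 17 fell and 2 rose (median -0.30). Hspa9, the matrix chaperone that pulls proteins in, changed by -1.14 ± 0.08, the import pore relative Tomm40l by -1.45 ± 0.12 and the protease subunit Afg3l2 by -1.15 ± 0.08. Gfer, the oxidase that folds imported proteins in the intermembrane space, went the other way, at 4.68, 4.81 and 4.89 in the dmKO-labelled libraries, against 3.79, 3.94 and 3.74 in WT (0.97 ± 0.09).

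Of 23 genes of mitochondrial dynamics and cristae 12 fell (median -0.29). Beside Chchd10 these included the fission protein gene Mtfp1 (-1.99 ± 0.16), the fusion gene Mfn1 (-1.63 ± 0.08), its relative Mfn2 (-0.65 ± 0.11), the cristae organiser Immt (-1.25 ± 0.07) and the inner membrane fusion gene Opa1 (-0.77 ± 0.09). Of 36 mitochondrial carriers 14 fell and 1 rose (median -0.37), among them the phosphate carrier Slc25a3 (-1.39 ± 0.08) and the ATP/ADP exchanger Slc25a4 (-1.01 ± 0.10). Of 17 genes that copy and transcribe mitochondrial DNA 6 fell (median -0.12), led by Lrpprc, which stabilises mitochondrial messengers (-1.08 ± 0.10). Tfam, the factor that packages mitochondrial DNA, read 3.38, 3.42 and 3.48 in the dmKO-labelled libraries, against 3.54, 3.66 and 3.65 in WT and was not called (-0.19 ± 0.10).

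Among 25 antioxidant genes 9 fell and 4 rose, beside 6.95% lower and 11.1% higher over all genes. After centring 9 fell and 3 rose. The median of this list was -0.00 and lay between -0.16 and 0.17 when 1 library was left out. The mitochondrial superoxide dismutase Sod2 read 4.43, 4.31 and 4.42 in the dmKO-labelled libraries, against 5.87, 6.11 and 6.13 in WT (-1.65 ± 0.09). The quinone reductase Nqo1 (0.75 ± 0.17), glutathione reductase Gsr (0.52 ± 0.12) and Gpx4 (0.47 ± 0.08) were higher, while the cytosolic peroxiredoxin Prdx6 (-0.40) was lower. The call of Prdx2, another (-0.35 ± 0.09), was lost without WT library 2 (-0.27 ± 0.10) and in the fit of the 6 libraries alone (adjusted p = 0.0671). Peroxisomal genes had 8 of 23 lower, 2 higher and a median of -0.14, beside 6.95% lower and 11.1% higher over all genes. In that list Ephx2 and Phyh, given above, were far below the rest, the next being Abcd2 at -0.62. Of 21 integrated stress response genes, which respond to mitochondrial faults in many tissues, 2 were lower and 1 higher, beside 6.95% lower and 11.1% higher over all genes. Their median was -0.18, and -0.37 to -0.04 when 1 library was left out. The mitokine Gdf15 was not called (-0.03).

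Of 21 coactivators and regulators of oxidative genes, 4 fell and 3 rose (median 0.08, and -0.02 after centring), beside 6.95% lower and 11.1% higher over all genes. After centring 5 fell and 1 rose. Sirt3, the main mitochondrial deacetylase, read 1.46, 1.5 and 1.85 in the dmKO-labelled libraries, against 3.43, 3.47 and 3.20 in WT (-1.76 ± 0.14). Ppara, a nuclear receptor that drives fatty acid use, read -0.30, -0.47 and -0.61 in the dmKO-labelled libraries, against 1.06, 1.40 and 1.07 in WT (-1.64 ± 0.17). Perm1, a muscle regulator linked to PGC-1alpha and the ERRs, changed by -0.95 ± 0.18. Ppargc1a read 2.33, 3.15 and 2.40 in the dmKO-labelled libraries, against 1.74, 1.89 and 1.56 in WT. Its groups did not overlap, yet its change of 0.90 ± 0.45 was not called (limma, adjusted p = 0.18). The nuclear respiratory factor genes Nrf1 (0.26 ± 0.18) and Gabpa (-0.22 ± 0.09) were not called.

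Carbohydrate genes did not follow the oxidative genes. Of 20 genes of glycolysis and glucose or lactate transport, 1 was called lower and 0 higher (median 0.10, and -0.00 after centring), the call being the lactate and pyruvate transporter Slc16a1 at 2.14, 2.31 and 2.58 in the dmKO-labelled libraries, against 3.54, 3.96 and 3.76 in WT (-1.41 ± 0.14). Phosphofructokinase, Pfkm, changed by 0.03 ± 0.12 and hexokinase 2, Hk2, by 0.01 ± 0.21. Of 17 glycogen genes 7 were called higher (3 after centring) and 0 lower, with a median of 0.33. The 3 were Phkb, given above, the phosphatase targeting subunit Ppp1r3d (1.96 ± 0.39) and Stbd1, which tethers glycogen to membranes, at 5.11, 5.31 and 5.80 in the dmKO-labelled libraries, against 3.95, 4.0 and 3.56 in WT (1.57 ± 0.20). Glycogen synthase, Gys1 (-0.13 ± 0.13), and muscle phosphorylase, Pygm (0.26 ± 0.15), were not called.

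Of 14 genes that buffer ATP, 5 fell and 3 rose, beside 6.95% lower and 11.1% higher over all genes. The falls were of mitochondrial enzymes for the most part, with the mitochondrial creatine kinase Ckmt2 at 7.48, 7.64 and 8.09 in the dmKO-labelled libraries, against 9.27, 9.79 and 9.46 in WT (-1.77 ± 0.12), and the adenylate kinase Ak4 (-1.45 ± 0.27). The rises were Gamt, the AMP deaminase Ampd1 (0.71 ± 0.18) and Adssl1 (0.46 ± 0.08), the last 2 of the purine nucleotide cycle. The creatine kinase of the cytosol, Ckm, changed by -0.42 ± 0.16 and was not called, though it was after centring.

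Slow-fibre contractile genes varied between the animals. Of 16 genes 7 were called higher and 2 lower (median 0.72), with 3 to 9 called higher when 1 library was left out, the 3 without dmKO-labelled library 1 and 5 without dmKO-labelled library 3 or WT library 1. Myh7 read 3.71, -1.03 and 2.84 in the dmKO-labelled libraries, against -1.73, -1.96 and -1.42 in WT (3.55 ± 0.94, limma, adjusted p = 0.00755). The slow and cardiac troponin C gene, Tnnc1, read 4.82, 1.70 and 3.97 in the dmKO-labelled libraries, against 1.06, 1.60 and 1.02 in WT (2.28 ± 0.52). In both genes dmKO-labelled library 2 lay close to the WT values. Myh7 was not called without dmKO-labelled library 1 (2.61 ± 1.00, adjusted p = 0.0791) or library 3 (3.05 ± 1.05, adjusted p = 0.0516), and neither gene was called in the fit of the 6 libraries alone (adjusted p = 0.0609 and 0.0621).

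The slow troponins Tnni1 (3.70, 0.91 and 3.12 in dmKO-labelled libraries, against 0.37, 1.59 and 0.32 in WT) and Tnnt1 (4.47, 1.62 and 3.60, against 2.11, 1.98 and 1.44 in WT) overlapped between the groups. Their calls (1.82 ± 0.47 and 1.39 ± 0.42) were lost without dmKO-labelled library 1, at 1.26 ± 0.48 and 0.77 ± 0.40. That of Tnnt1 was lost also without dmKO-labelled library 3 (1.20 ± 0.47) or WT library 3 (1.19 ± 0.47). The slow light chains did not differ beyond their spread, with Myl2 at 3.72, 0.95 and 3.10 in dmKO-labelled libraries, against 2.15, 5.59 and 3.23 in WT, and Myl3 at 4.96, 2.18 and 4.09 in dmKO-labelled libraries, against 2.15, 4.29 and 1.59 in WT. The libraries thus differed in slow-fibre genes within each label, and WT library 2 was the WT library with most Myl2, Myl3 and Tnni1. All these values lie far below soleus, where the lowest Myl2 was 10.2. Over the WT EDL libraries of all classes the highest Tnni1 was 2.37, Tnnt1 3.63 and Myl3 4.75. Each exceeded the WT libraries of this class, while the highest Myl2 was the 5.59 given here.

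The oxygen store myoglobin, Mb, a gene of oxidative fibres, was lower, at 10.08, 9.80 and 10.55 in dmKO-labelled libraries, against 10.96, 11.17 and 11.31 in WT (-1.01 ± 0.17). So was Casq2, the slow and cardiac calsequestrin, at 2.33, 1.59 and 2.3 in dmKO-labelled libraries, against 2.96, 4.07 and 3.52 in WT (-1.44 ± 0.32). Of 16 fast contractile genes limma called 0, also after centring, 0 had an unadjusted p under 0.05, and their median was 0.13. In 6 of the 16 the groups did not overlap, beside 37.9% over all genes. The list mean was 10.83 to 10.89 in dmKO-labelled libraries and 10.65 to 10.78 in WT. Myh2, the heavy chain of fast oxidative fibres, changed by 0.07 ± 0.35, Myh1 by 0.12 ± 0.43 and Myh4 by -0.11 ± 1.08. The shared spread includes soleus, where Myh4 ran from 2.90 to 8.63, while in these EDL libraries it stayed between 11.39 and 11.76. The absence of calls thus does not show that these genes were unchanged.

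**Figure D4:**
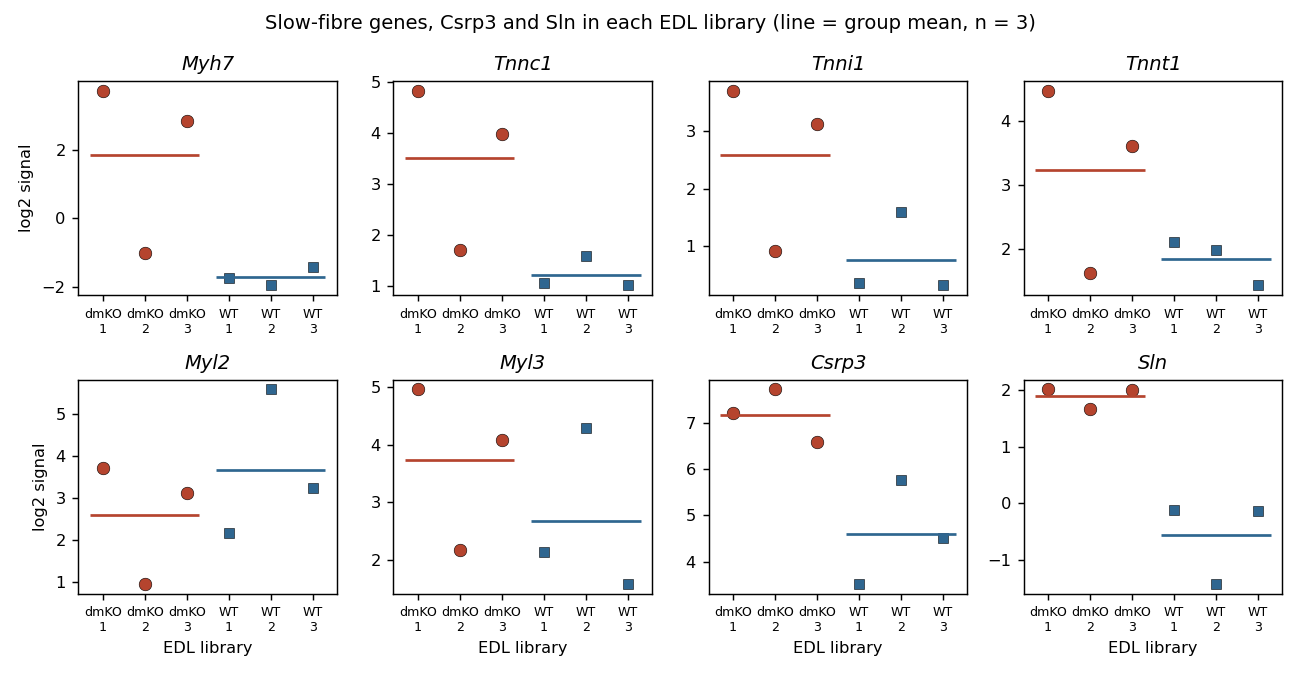
Log2 signal (y axis) of 6 slow-fibre genes, Csrp3 and Sln in each of the 6 EDL libraries (x axis; red circles dmKO-labelled, blue squares WT), with a line at each group mean. In dmKO-labelled libraries Myh7 spans -1.03 to 3.71, and library 2 is the lowest of its group for the 6 slow-fibre genes but the highest for Csrp3.

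Calcium handling genes had 12 of 34 higher and 3 lower (median 0.21), beside 11.1% and 6.95% over all genes. After centring 6 were higher and 4 lower. When 1 library was left out, 7 to 10 were higher and 2 to 3 lower. Sarcolipin, Sln, a small inhibitor of the calcium pump, read 2.01, 1.67 and 2.00 in the dmKO-labelled libraries, against -0.11, -1.42 and -0.13 in WT (2.45 ± 0.62). The slow calcium pump Atp2a2 read 4.19, 2.84 and 3.70 in the dmKO-labelled libraries, against 2.35, 2.81 and 2.63 in WT, and its rise of 0.98 ± 0.24 was not called without dmKO-labelled library 1 (0.67 ± 0.23). The calcium channel subunit Cacng1 (0.77 ± 0.15) and the calcineurin subunit Ppp3ca (0.62 ± 0.09) rose, and Letm1 of the mitochondrial inner membrane fell (-0.81 ± 0.10). The fast pump Atp2a1 was not called (-0.07 ± 0.15).

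Of 26 Z-disc and stretch-response genes 12 were called higher and 0 lower (median 0.57), again 12 and 0 after centring and 8 to 13 higher when 1 library was left out, the 8 without WT library 1. Csrp3, the muscle LIM protein that links the Z-disc to the nucleus, read 7.21, 7.73 and 6.59 in the dmKO-labelled libraries, against 3.52, 5.76 and 4.51 in WT (2.58 ± 0.66), and was not called without WT library 1 (2.04 ± 0.72, adjusted p = 0.0544). Small heat shock proteins that guard the sarcomere were among them. Hspb1 read 7.74, 8.19 and 7.60 in the dmKO-labelled libraries, against 6.62, 6.38 and 6.14 in WT (1.46 ± 0.37), and Cryab changed by 1.11 ± 0.30. The Z-disc protein gene Pdlim3 read 9.07, 9.11 and 8.92 in the dmKO-labelled libraries, against 8.21, 7.97 and 7.87 in WT (1.02 ± 0.19).

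Of 22 genes of the neuromuscular junction and the response to denervation, 6 were higher (5 after centring) and 0 lower (median 0.35), but 2 to 6 when 1 library was left out, the 2 without WT library 2, 3 without WT library 3 and 4 without any 1 dmKO-labelled library. The calls that stood in every such fit included Myog, the myogenic factor that denervated fibres induce, at 0.25, 2.28 and 1.02 in dmKO-labelled libraries, against -0.37, -1.06 and -1.63 in WT (2.2 ± 0.43), and the acetylcholine receptor subunit Chrnb1 (1.11 ± 0.18). The embryonic receptor subunit Chrng was not called (-0.91). Of 25 genes of atrophy and growth control 5 rose and 1 fell (median 0.18), beside 11.1% higher and 6.95% lower over all genes. After centring 4 rose and 1 fell (median 0.08). The rises included the activin antagonist follistatin, Fst (1.15 ± 0.32), the ubiquitin ligase Fbxo32 (0.92 ± 0.18) and the autophagy receptor Sqstm1 (0.76 ± 0.13). The fall, Akt1 (-0.37), was not called without any 1 dmKO-labelled library or without WT library 2. Myostatin, Mstn, was not called (0.30). Myf6, a myogenic factor of mature fibres, was higher (0.99 ± 0.16), and Myod1 was not called (0.48 ± 0.36).

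Most genes of the cytosolic ribosome and the proteasome were called higher, by small amounts. Of 79 cytosolic ribosomal protein genes 73 were higher and 0 lower (median 0.50), and 65 and 0 after centring. Rpl4 read 9.28, 9.20 and 9.26 in the dmKO-labelled libraries, against 8.42, 8.37 and 8.42 in WT (0.84 ± 0.06). Many ribosomal protein genes have near-identical pseudogenes, and how shared reads were counted is not stated, so single members are uncertain. Of 41 translation factors 24 rose (median 0.29), but 15 rose and 1 fell after centring, with Eif4b (0.77 ± 0.11) and Eif3e (0.66 ± 0.07) called under both scalings. Of 37 proteasome genes 26 rose and 0 fell (median 0.34), with 22 and 0 after centring. Psmd6, of the cap that unfolds substrates, read 7.16, 7.18 and 7.16 in the dmKO-labelled libraries, against 6.53, 6.42 and 6.35 in WT (0.74 ± 0.07).

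Among 17 angiogenic genes 3 fell and 1 rose, beside 6.95% lower and 11.1% higher over all genes. After centring 3 fell and 0 rose. Vegfb, an endothelial growth factor known to be co-expressed with mitochondrial genes, read 4.05, 4.20 and 4.15 in the dmKO-labelled libraries, against 5.77, 6.07 and 6.07 in WT (-1.84 ± 0.09). Vegfa changed by -0.46 ± 0.15 and was not called without dmKO-labelled library 1 (-0.36), dmKO-labelled library 2 (-0.48) or WT library 2 (-0.31). Of 10 endothelial markers 2 were lower and 0 higher (median -0.33), beside 6.95% and 11.1% over all genes. When 1 library was left out, 1 to 3 were lower. After centring, beside 8.73% over all genes, 4 of the 10 endothelial markers were lower. The log2 of their summed linear signal was 6.16 to 6.6 in dmKO-labelled libraries and 6.42 to 6.72 in WT, and their part in the angiogenic genes was not tested.

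Other cell types showed few calls. Limma called 0 of 8 smooth muscle and pericyte, 10 fibroblast, 11 leukocyte, 7 Schwann and 5 erythroid markers, and 0 of 22 collagen and matrix genes. At an unadjusted p under 0.05 there was 1 of the smooth muscle and pericyte markers, which was called lower after centring, and 0 in each of the others. Leukocyte and erythroid markers were highest in dmKO-labelled library 3 and WT library 2. For leukocytes the log2 of the summed linear signal was 6.49 and 6.69 there and 5.16 to 5.42 in the other 4 libraries. Of 6 tendon markers Scx alone was called, reading 3.42, 3.45 and 3.53 in the dmKO-labelled libraries, against 1.26, 1.46 and 1.49 in WT. The other 5, among them Tnmd (-0.26) and Mkx (-1.21), were below 0, and the median of the 6 was -0.60. Mkx was not called, but its groups did not overlap, at -3.51 to -1.87 in dmKO-labelled libraries and -1.45 to -1.29 in WT. The log2 of the summed linear tendon signal was 4.85 to 5.62 in dmKO-labelled libraries and 5.32 to 5.51 in WT. Scx overlaps Bop1 on the opposite strand. All 6 satellite cell markers were above 0 (median 0.71), with 1 called higher and 0 after centring. Of 14 myogenic and satellite cell genes 5 were higher and 0 lower (median 0.71), beside 11.1% and 6.95% over all genes. After centring 3 were higher (6.15% over all genes), and 2 to 4 were higher when 1 library was left out.

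The changes were then set against those of the other classes in EDL, each with its own WT libraries. For the ERRalpha class the EDL columns lack the letters that mark a class, which was read from the soleus column of the same animal, so every comparison with that class rests on this match. In EDL placed in the ERRalpha class 436 of 13285 genes were called (3.28%), and in EDL labelled for ERRbeta and ERRgamma 29 of 13333 (0.218%). Esrra itself changed there by -0.19 ± 0.12 and -0.02 ± 0.12, so the muscles placed in the ERRalpha class do not show the fall in Esrra seen in the ERRalpha/ERRgamma class. As for Esrrg, reads from exons that were not removed may remain, so this value does not check the ERRalpha label. Over the 130 oxidative genes the medians were -1.18 in the ERRalpha/ERRgamma class, -0.24 in the ERRalpha class and -0.05 in the ERRbeta/ERRgamma class, with 118, 50 (1.46% over all genes) and 1 (0.158% over all genes) called lower. The difference itself was called for 100 of the 130 genes against the ERRalpha class (median -0.94, 3.48% over all genes) and for 106 against the ERRbeta/ERRgamma class (median -1.15, 4.06% over all genes), all lower in the ERRalpha/ERRgamma class. Over all genes the difference was called for 638 of 13261 (4.81%) and 914 of 13302 (6.87%).

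**Figure D5:**
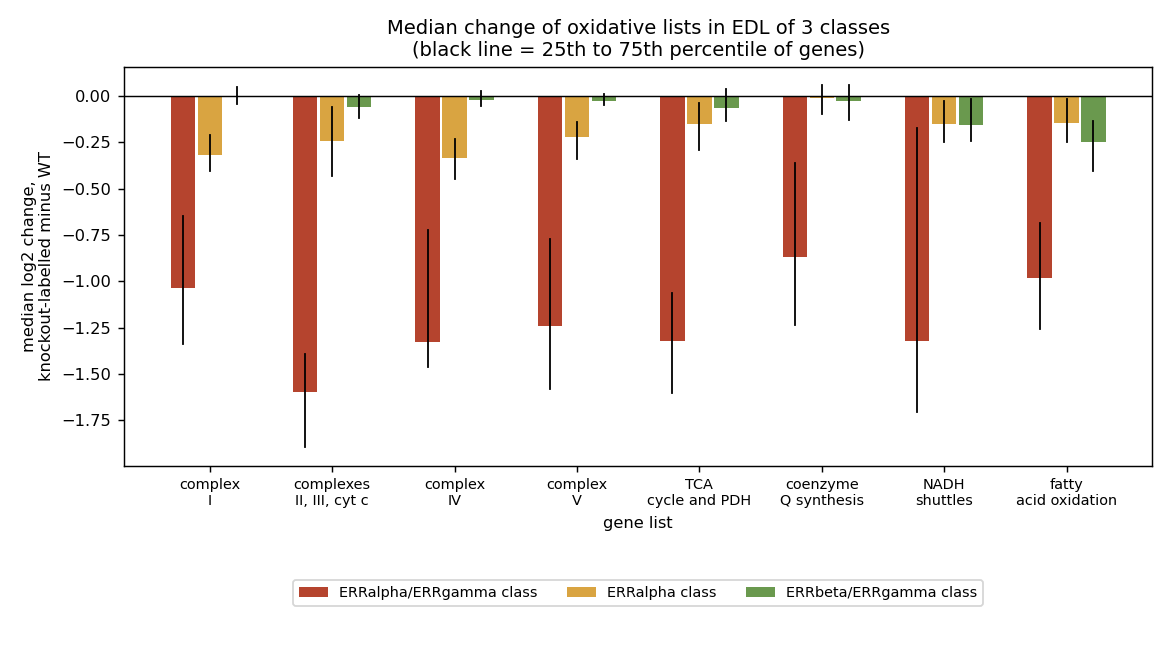
Median log2 change, knockout-labelled minus WT (y axis), of 8 oxidative gene lists (x axis) in EDL of the 3 deletion classes, with black lines from the 25th to the 75th percentile of the genes in a list. Medians in the ERRalpha/ERRgamma class (red) run from -1.60 to -0.87, against -0.33 or nearer 0 in the other classes.

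Single genes showed how the classes parted. Ostn changed by -2.40 ± 0.29 in the ERRalpha/ERRgamma class and by 0.96 in the ERRalpha class, a difference of -3.36 (limma, adjusted p = 6.9e-07). Ldhb did likewise, with -1.49 ± 0.15 against 0.85 in the ERRalpha class (difference -2.34, limma, adjusted p = 1.9e-09), and so did Bdh1 (-1.73 against 1.04, difference -2.77, limma, adjusted p = 7.2e-05). Chchd10 changed by -0.12 and -0.09 in the ERRalpha and ERRbeta/ERRgamma classes, differences of -2.70 and -2.72. Phkb was the reverse case for ERRalpha, with 2.47 ± 0.15 beside 2.42 there (difference 0.05, adjusted p = 0.95) and 0.05 in the ERRbeta/ERRgamma class (difference 2.42, limma, adjusted p = 5.4e-10). Rgs2 (1.65 beside 1.72) and Car3 (2.49 beside 2.26) also had like values in the ERRalpha class, and their differences, -0.07 and 0.24, were not called.

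Muscle structure genes parted from the ERRbeta/ERRgamma class above all. Slow-fibre genes varied among WT EDL libraries too. Over those of all classes Myh7 spanned -2.48 to 2.33 and Tnnc1 1.02 to 3.67. In WT of the ERRalpha/ERRgamma class they spanned -1.96 to -1.42 and 1.02 to 1.60. Each change is taken against the WT of its own class, so differences between classes in these genes depend on that variation as well. Csrp3 changed by 2.58 ± 0.66 in the ERRalpha/ERRgamma class and by -2.69 in the ERRbeta/ERRgamma class (difference 5.27, limma, adjusted p = 0.00025), and Myl3 by 1.07 ± 0.56 and -2.67 (difference 3.74, adjusted p = 0.0018). The difference for Myh7 was 5.15 (limma, adjusted p = 0.013) and was not called without dmKO-labelled library 1 (4.22, adjusted p = 0.061) or in the fit of the 18 EDL libraries (adjusted p = 0.079). Cytosolic ribosomal genes were called higher than in the ERRalpha class in 46 of 79 (1.33% over all genes) and than in the ERRbeta/ERRgamma class in 31 (2.81% over all genes).

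In soleus of the same class Esrra read 5.12, 5.06 and 5.15 in dmKO-labelled libraries, against 5.45, 5.66 and 5.95 in WT, a change of -0.57 ± 0.12 where EDL had -2.23 ± 0.12 (difference -1.66, limma, adjusted p = 5.68e-08). The muscles are thus compared at unequal changes in the receptor's signal. In that soleus 1701 of 13385 genes were called (12.7%). Oxidative genes fell there in 108 of 130 (5.86% over all genes) with a median of -0.65. In the test of the difference 71 of the 130 were lower in EDL (1.5% over all genes) and 1 was higher (0.57% over all genes), with a median difference of -0.52. The difference was called for 276 of 13342 genes (2.07%). Of the 6 animals, 2 gave libraries of both muscles. Chchd10 differed most plainly, with -2.82 ± 0.09 in EDL and -0.33 in soleus (difference -2.48, limma, adjusted p = 5.8e-14). Slc25a4 (-1.01 ± 0.10 in EDL, -1.33 in soleus), Mfn1 (-1.63 ± 0.08 and -1.46) and Sod2 (-1.65 ± 0.09 and -1.36) were not called as different.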

How the data were processed

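Gene expression was measured by RNA sequencing of whole EDL muscle from 400 ng of RNA with 10 cycles of PCR, using a directional kit, per the labels' protocols. The deposited values are log2 signals per gene, quantile normalized by the authors across 36 libraries, per the file's name and its values. Partek 6.6 and the builds GRCm38.p6 and mm10 are named per the submitters' processing notes. How reads were aligned and counted, whether strand was used, and what unit preceded the log: not given in the sources used here. Read depth is therefore unknown, and no counting interval can be given.

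Of 45802 rows, 27904 held no value and 27 had a date in place of a symbol and were left out, leaving 17873 genes. Genes whose mean over the 36 libraries, with missing signals at -8.21, was above the 25th percentile (-5.24) were kept, 13404 in all, of which 88.9% had a value in every library. A missing value stays missing in the fit and drops that library for that gene. Columns carry an animal number but no replicate number of the titles. Most name muscle, class and genotype, but the 6 EDL columns of the ERRalpha class name no class, which was taken from the soleus column of the same animal. Each group has 3 animals per the series design. The p-values of the main test measure a spread within groups that is shared over 12 groups and both muscles, not that of the 6 EDL animals alone. The fit of the 6 libraries alone called 2162 genes, 1334 higher and 828 lower.

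The 36 libraries came from 22 animals, 14 of which gave both muscles, and the main test treats them as independent. Limma 3.58.1 in R 4.3.3 was fitted to 12 groups over all 36 libraries, which share 1 estimate of the spread per gene, with intensity-dependent shrinkage, and p-values were adjusted by the Benjamini-Hochberg method over all genes tested. The fit was tested on simulated data with known changes. The genes named in the text are the receptors, the 15 largest falls and the 15 largest rises among called genes with at least the median level and no overlap between groups, the leading members of each list and those that moved against it, and the genes that differed most between classes. Further list members are given as examples. Members and lists were chosen with earlier results of these data known. Alternatives were other sets of libraries, filters, treatment of missing values, a pseudocount, centring, the animal as a block and leaving out each library. Centring on the median deviation and the animal block were chosen after seeing the data.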

Additional observations from a re-analysis of the deposited data

Results flagged for a closer look

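The change between dmKO-labelled and WT libraries in EDL of the ERRalpha/ERRgamma class differed from that in other mice or in the other muscle, by a limma test of the difference itself at an adjusted p under 0.05. The difference was called for 638 genes against EDL of the ERRalpha class, for 914 genes against EDL of the ERRbeta/ERRgamma class and for 276 genes against soleus of the ERRalpha/ERRgamma class, where Esrra changed by -0.57. Each class has its own WT libraries, and Esrra was at 21.3% of WT in the ERRalpha/ERRgamma class alone among the EDL classes. Differences from the ERRalpha class thus rest on libraries in which the deletion named by the label does not show in the signal of Esrra. Reads from exons that were not removed may remain, so that signal does not check the ERRalpha label.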

How the results depend on the processing

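Esrra and Esrrb kept their direction and their call under all 17 other settings. Leaving out 1 library gave 1872 to 2014 called genes, 1026 to 1198 higher and 767 to 857 lower, with Esrra between -2.28 and -2.13, Esrrb between -1.75 and -1.41, and Esrrg between 0.31 and 0.63. Esrrg was no longer called in the fit of the 6 libraries alone (0.51), after centring (0.41), without dmKO-labelled library 2 or without WT library 1. Centring on the median deviation, chosen after seeing the data, gave 822 genes higher in place of 1489, and 91 in place of 177 higher against the ERRalpha class; the cause was not tested. Leaving out 1 library gave 105 to 158 genes higher against the ERRalpha class, where 105 came without WT library 2 and 110 without dmKO-labelled library 3, and 47 to 56 in place of 76 higher in EDL than in soleus, a design with fewer libraries. Of 442 called genes that were listed or named, 351 were called under every setting that tested them and 91 were lost under at least 1. Genes that a stricter filter removes were not tested under that setting. No named gene that was called reversed its direction, but 1 that was not called changed sign without dmKO-labelled library 1 and 1 without WT library 2, and list medians near 0 (regulators, glycolysis, antioxidant) changed sign under centring or without 1 library, as given with them. No animal gave both a dmKO-labelled and a WT EDL library, and columns carry no replicate number of the titles. With the animal as a replicate block, added after seeing the data (consensus correlation 0.137, 13187 genes), 2442 genes were called in EDL, 1500 higher and 942 lower, and 321 between EDL and soleus in place of 276, and no named gene's call changed. Depth is unknown, so no limit for low signals can be given, and 3 animals per label bound the precision.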

Other observations

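All 18 tested immediate early genes, which respond within minutes to stimuli and to handling of tissue, were above 0 (median 0.71). Jun was the 1 called, while over all genes 11.1% were called higher and the median was 0.13. Jun read 4.93, 5.25 and 4.96 in dmKO-labelled libraries, against 4.18, 4.04 and 4.34 in WT (0.86 ± 0.11), and changed by 0.83 in soleus of the same class. Of 18 clock genes 4 were higher and 0 lower (median 0.31), beside 11.1% and 6.95% over all genes. After centring 1 clock gene was higher, beside 6.15% over all genes. Of 18 regulators of fibre type 3 were higher and 1 lower (median 0.22), and 1 and 1 after centring, beside 11.1% higher and 6.95% lower over all genes.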
